A study of Bos taurus with 14 samples.

Results

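Solute carriers are the large superfamily of membrane proteins that move ions, metals, metabolites and vitamins across cell and organelle membranes. The set described here holds every gene measured on a bovine array whose symbol begins with SLC and a digit, after SLC5A1, SLC1A5, SLC3A2 and the SLC2, SLC7 and SLC38 families, the main glucose and amino acid carriers, had been left out. It came to 122 genes of 6697 named genes, each with 1 probe set, out of 141 SLC symbols on the array and 19 left out. Members were taken by name and not by measured values, although the set was picked with earlier results of these data known. It still contains 16 carriers of amino acids, peptides or transmitters and 4 of sugars or polyols, among them the glucose carrier SLC5A2. The words "beyond glucose and amino acids" thus hold only in part.

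Each of 14 Holstein-Friesian cows gave mammary gland tissue for 1 Affymetrix array. In each of 7 blocks 1 cow received the Omega diet, a basal diet plus a concentrate that contained linseed, a source of alpha-linolenic acid, and 1 cow received the Control diet, the same basal diet plus a concentrate without linseed. Both groups held 7 cows, and feeding ran from 3 weeks before the expected calving to 6 weeks after calving. Parity labels ran from 1 to 6, with 4 cows at 1 and 10 above 1, although the stated design names no cow in its first parity. All 4 cows labelled 1 also carry a previous milk yield, so parity 1 below is a label and need not mean a first lactation. The day of tissue sampling is stated neither by the labels nor by the design text.

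The mammary epithelial cell draws nearly everything that milk contains from blood, and each step depends on carriers. Carriers in the basolateral membrane bring in ions, phosphate, metals, choline and short-chain acids, carriers in the Golgi membrane supply the nucleotide sugars used for lactose and for glycoproteins, and the SLC25 family exchanges nucleotides, phosphate, keto acids and acylcarnitines between mitochondria and cytosol. The roles given below are those known for the human or mouse proteins.

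Values are deposited log2 intensities, on which a difference of 1 is a doubling of signal. Levels of different probe sets cannot be set against each other, because probes differ in how brightly they bind, so each gene is compared only with itself across cows. Tests were limited to probe sets with a mean above the 30th percentile (log2 4.59), which kept 7518 of 10740 probe sets and 73 of the 122 solute carriers. In whole tissue, fewer cells of a type and less RNA per cell cannot be told apart. Milk protein transcripts were bright in every cow, with LALBA, the alpha-lactalbumin gene, between 14.5 and 14.6. Among the markers of luminal secretory epithelium, KRT18 and ELF5 have no value here and the other 7 passed the filter.

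Arrays did not all look alike. The leading principal component took up 51.0% of the variance, and on it the Control cows of blocks 302 and 304 lay at 43.7 and 46.4, and the other 12 cows lay between -18.1 and 10.8. Their labels give parity 1 and parity 2, so they bear on the diet comparison and on both parity comparisons. Of 4 acute-phase genes, SAA3, LBP and LTF were higher in both of these cows than in any other; SAA3, a serum amyloid A gene of the inflamed udder, stood at 12.8 and 13.8 in them, against 6.70 to 10.2 in the other 12. HP, the haptoglobin gene, stood at 4.84 in block 302, within the 3.49 to 6.12 of the other 12, and at 10.00 in block 304.

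Mitochondrial carriers made up the largest group, with 25 members and 19 tested. SLC25A6 and SLC25A4 exchange ADP for ATP across the inner mitochondrial membrane, and SLC25A3 brings in phosphate for ATP synthesis. SLC25A6 had a lowest, median and highest value of 10.2, 10.6 and 10.7 in Omega cows, against 10.3, 10.6 and 11.1 in Control cows. SLC25A3 had 10.1, 10.2 and 10.5 in Omega cows, against 10.1, 10.2 and 10.6 in Control cows. The diets overlapped for these 2 genes, and for SLC25A6 the Control cows of blocks 302 and 304 lay above all the other cows. SLC25A4 ran from 9.95 to 10.4 in Omega cows, against 9.23 to 10.3 in Control cows, and the low end in Control cows came from blocks 304 and 302 at 9.23 and 9.55. Members without enough signal for a test were SLC25A12, SLC25A14, SLC25A25, SLC25A34, SLC25A40 and SLC25A48.

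Zinc carriers were represented by the import family SLC39, with all 8 of its members tested, and by SLC30A6, of the export family, which was not tested. SLC39A14, an importer of zinc, iron and manganese, averaged 8.30 ± 0.19 in Omega cows and 8.28 ± 0.31 in Control cows (SD, n = 7 each). SLC39A7, which releases zinc from the endoplasmic reticulum, averaged 7.28 ± 0.16 in Omega cows and 7.34 ± 0.28 in Control cows. The 2 diets overlapped almost wholly for both importers. SLC39A12 was the most variable importer, with values between 3.52 and 6.21 over the 14 cows, a 6.49-fold span. Its 14 values straddle the filter value, so part of this span lies in the range where dim signal is poorly measured.

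Carriers of other metals included 4 tested members of 5. SLC31A1 is the main copper importer and SLC31A2 a relative of it in inner membranes. SLC31A1 ran from 8.73 to 9.08 in Omega cows, against 8.72 to 9.20 in Control cows. SLC31A2 ran from 10.8 to 12.0 in Omega cows, against 10.8 to 11.9 in Control cows. Neither copper carrier separated the diets. SLC40A1, ferroportin, the only known cellular exporter of iron, lies outside the naming rule and was singled out after its values had been seen. It had a lowest, median and highest value of 7.25, 7.59 and 8.00 in Omega cows, against 7.36, 7.68 and 9.24 in Control cows. The 2 values above all the others were those of the Control cows of blocks 302 and 304, at 9.24 and 9.00.

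Short-chain and long-chain acids enter by separate families. SLC16A1, the MCT1 carrier of lactate, pyruvate and ketone bodies, had a lowest, median and highest value of 7.63, 9.27 and 9.89 in Omega cows, against 7.62, 9.18 and 9.89 in Control cows. Its lowest values came from 1 Omega cow, at 7.63, and from the Control cows of blocks 304 and 302, at 7.62 and 8.01. The 14 cows spanned 4.82-fold for this gene. SLC16A13, a less studied relative, lay between 5.49 and 5.83. SLC27A6, a fatty acid transport protein, had a lowest, median and highest value of 5.86, 7.62 and 7.97 in Omega cows, against 5.26, 6.89 and 8.02 in Control cows. SLC27A1, another member of that family, averaged 5.38 ± 0.09 in Omega cows and 5.33 ± 0.14 in Control cows. SLC27A6 thus ranged 6.80-fold among cows, with low cows in both diets.

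Of the nucleotide sugar and acetyl-CoA carriers, 13 of 14 were tested. SLC35A2 takes UDP-galactose into the Golgi, where it is used for lactose, and SLC35A1 takes in CMP-sialic acid. SLC35A2 had a lowest, median and highest value of 4.97, 5.03 and 5.14 in Omega cows, against 4.34, 4.94 and 5.14 in Control cows. SLC35A1 had 6.80, 7.17 and 7.36 in Omega cows, against 7.01, 7.23 and 8.22 in Control cows. The Control cows of blocks 302 and 304 were the 2 lowest of all 14 for SLC35A2 and the 2 highest for SLC35A1. SLC35B1, an ATP and ADP exchanger of the endoplasmic reticulum, ran from 7.66 to 8.45 in Omega cows, against 7.51 to 8.54 in Control cows. SLC33A1, the acetyl-CoA carrier of the same membrane, averaged 7.64 ± 0.40 in Omega cows and 7.72 ± 0.37 in Control cows. SLC35F5, an orphan member, averaged 8.74 ± 0.25 in Omega cows and 8.81 ± 0.35 in Control cows, so these 3 showed overlapping diets.

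Only 4 of 12 ion carriers and 1 of 5 phosphate carriers were tested. SLC12A2, the sodium, potassium and chloride cotransporter NKCC1, had a lowest, median and highest value of 6.62, 6.93 and 7.37 in Omega cows, against 6.59, 7.37 and 7.77 in Control cows. SLC4A7, a sodium bicarbonate cotransporter, averaged 8.53 ± 0.23 in Omega cows and 8.56 ± 0.19 in Control cows. Both overlapped between the diets, and the Control values of SLC12A2 were more scattered than its Omega values. SLC20A2, a sodium-dependent phosphate carrier, ran from 4.62 to 5.27 in Omega cows, against 4.64 to 5.61 in Control cows. SLC34A2, the NaPi-IIb phosphate carrier, was not tested; it ran from 3.97 to 4.86 in Omega cows, against 3.49 to 5.18 in Control cows, on both sides of the filter value.

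Nucleosides, organic ions and vitamins have their own families. SLC29A1, the equilibrative nucleoside carrier ENT1, averaged 9.74 ± 0.36 in Omega cows and 9.69 ± 0.23 in Control cows. SLC22A5, which takes up carnitine with sodium, averaged 8.05 ± 0.43 in Omega cows and 8.15 ± 0.41 in Control cows. SLC22A17, a receptor for lipocalin-2, averaged 6.14 ± 0.14 in Omega cows and 6.21 ± 0.12 in Control cows. For each of these 3 genes the difference between diet means was smaller than the spread within a diet. SLC52A2, a riboflavin carrier, averaged 6.37 ± 0.21 in Omega cows and 6.24 ± 0.17 in Control cows. SLC5A6, which carries biotin and pantothenate, averaged 5.99 ± 0.37 in Omega cows and 6.25 ± 0.29 in Control cows. The 2 vitamin carriers differed in opposite directions, again by less than 1 SD of the wider group. SLC66A2, of a small family with few known substrates, averaged 6.25 ± 0.19 in Omega cows and 6.12 ± 0.20 in Control cows.

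The amino acid, peptide and transmitter carriers that the rule kept were mostly dim, with 5 of 16 tested. SLC6A8 brings in creatine, and averaged 7.05 ± 0.28 in Omega cows and 6.88 ± 0.27 in Control cows. SLC15A4, a lysosomal carrier of histidine and small peptides, averaged 6.76 ± 0.20 in Omega cows and 6.84 ± 0.13 in Control cows. SLC17A9, which loads nucleotides into vesicles, ran from 5.86 to 7.04 in Omega cows, against 5.41 to 6.57 in Control cows. The diets overlapped in all 3. SLC1A4, a carrier of small neutral amino acids, ran from 5.88 to 6.69 in Omega cows, against 5.33 to 7.02 in Control cows. SLC5A2, the only tested member of the sugar and polyol group, averaged 6.06 ± 0.20 in Omega cows and 5.82 ± 0.34 in Control cows.

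The 49 solute carriers that were not tested had means from 2.60 to 4.48. In 40 of them no cow exceeded the filter value, and these include SLC16A3, the lactate exporter MCT4, SLC4A4, a bicarbonate cotransporter, and SLC6A6, the taurine carrier. Such values bound neither presence nor absence of the transcript, because probe sets of this brightness lie close to background. In the other 9 at least 1 cow did exceed it: SLC1A1, SLC6A14, SLC13A2, SLC13A3, SLC25A14, SLC29A2, SLC30A6, SLC34A2 and SLC46A2. SLC6A14, a broad carrier of neutral and cationic amino acids, had the largest SD of all 122 members. It had a lowest, median and highest value of 2.89, 3.33 and 4.05 in Omega cows, against 2.89, 3.30 and 5.98 in Control cows. The Control cows of blocks 302 and 304 stood at 5.88 and 5.98, and none of the other 12 cows exceeded 4.05.

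The first comparison asked whether linseed feeding altered carrier transcripts, with Omega and Control cows paired by block. None of the 73 tested solute carriers passed an adjusted p of 0.05 in limma with block as a fixed effect, and neither did any of the 7518 probe sets tested (0%). At an unadjusted p under 0.05, 4 members were counted, 5.48% of those tested, beside 11% of all tested probe sets. Flipping the sign of each block's difference in all possible ways (exact test, two-sided) counted the same 4 at that level, beside 10.2% of all tested probe sets. The members' share lay below the background on both counts. Members were higher in Omega cows in 39 of 73 cases (53.4%), beside 43.1% of all tested probe sets, and their median difference was 0.02 on the log2 scale, beside -0.03 for all.

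**Figure D1:**
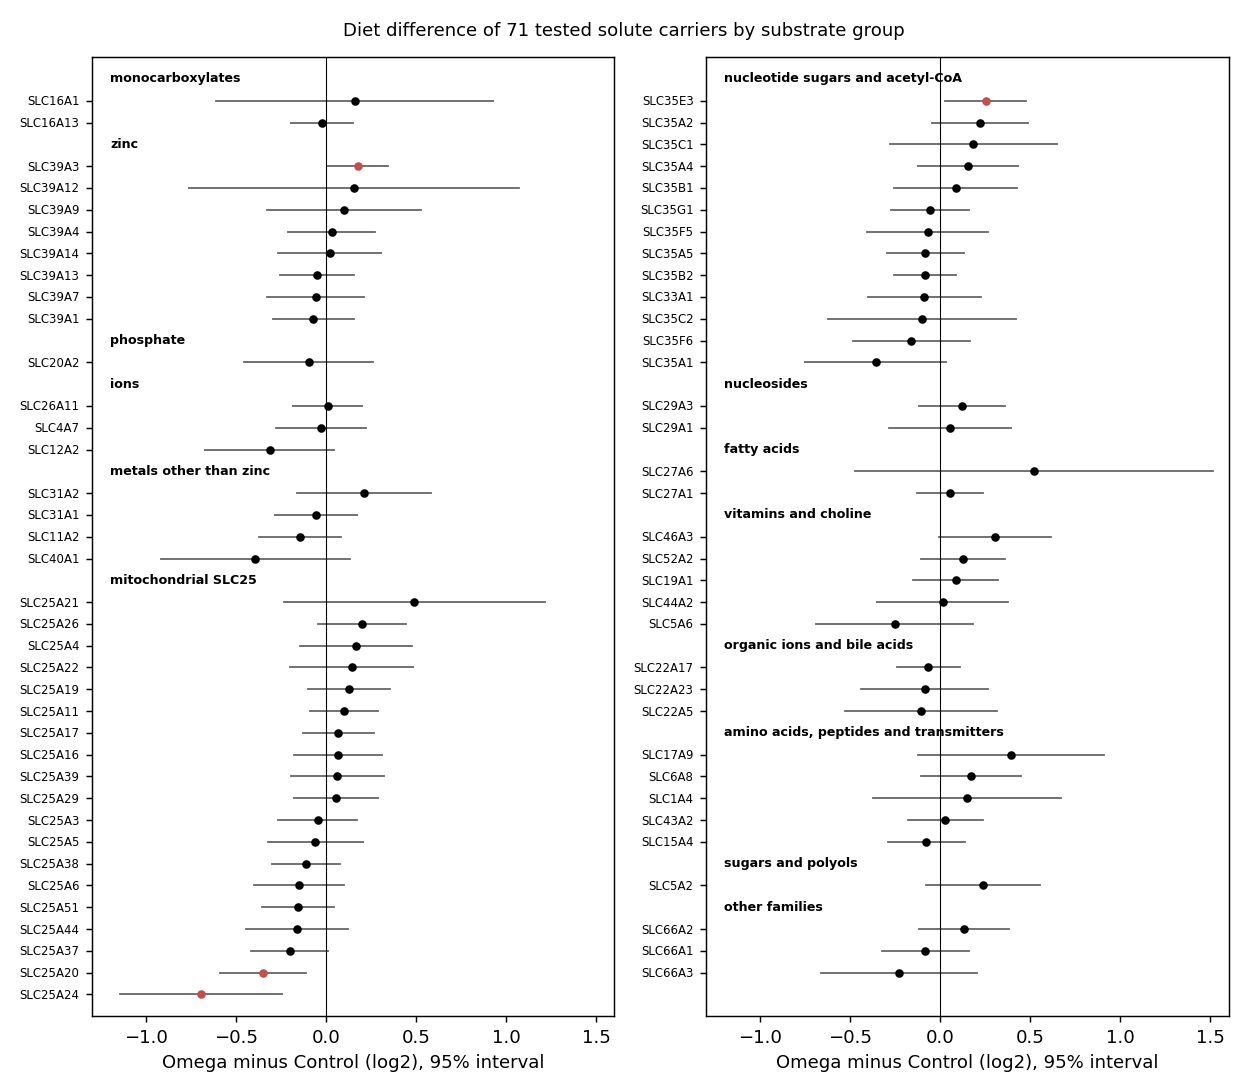
Fitted diet difference (Omega minus Control, log2) of 71 of the 73 tested solute carriers, with 95% limma intervals, ordered by size within substrate groups. Points in red mark the 4 members with an unadjusted p under 0.05, none of which passed after adjustment. SLC25A24 lies lowest at -0.69, and the interval of SLC27A6 is the widest.

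Both members that were lower in Omega cows at that level were mitochondrial (2.74% of members, beside 7.22% of all tested probe sets). SLC25A24 is a calcium-regulated carrier that exchanges ATP-Mg for phosphate and so sets the adenine nucleotide content of mitochondria. It had a lowest, median and highest value of 6.19, 6.43 and 6.75 in Omega cows, against 6.58, 6.92 and 8.25 in Control cows. The Omega cow had the lower value in all 7 blocks, although the groups overlapped between 6.58 and 6.75. The fitted difference was -0.69 (95% interval -1.14 to -0.25), a signal 1.62-fold lower in Omega cows, with a limma adjusted p of 0.447. The top of the Control range came from blocks 302 and 304, at 8.25 and 7.81, and without these 2 blocks the difference was -0.38 (-0.62 to -0.13; limma adjusted p 0.702), with the Omega cow lower in all 5 remaining blocks.

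SLC25A20 is the carnitine and acylcarnitine carrier, which brings long-chain fatty acids into mitochondria for oxidation. It had a lowest, median and highest value of 5.84, 6.12 and 6.43 in Omega cows, against 6.05, 6.43 and 6.79 in Control cows. The Omega cow was again lower in all 7 blocks, and the ranges overlapped. The difference was -0.35 (-0.59 to -0.11; limma adjusted p 0.447), and -0.30 (-0.53 to -0.06; adjusted p 0.734) without blocks 302 and 304. CPT2, which releases the fatty acid from carnitine inside mitochondria, averaged 7.54 ± 0.10 in Omega cows and 7.39 ± 0.14 in Control cows, with a difference of 0.15 that did not pass. CRAT, another carnitine enzyme, averaged 6.26 ± 0.13 in Omega cows and 6.31 ± 0.13 in Control cows. Its difference of -0.05 did not pass either. SLC22A5, the carnitine importer of the cell membrane, had overlapping diets as given above.

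Both members that were higher in Omega cows at that level were close to the dim end (2.74%, beside 3.78% of all tested probe sets). SLC39A3, the zinc importer ZIP3, had a lowest, median and highest value of 5.16, 5.26 and 5.55 in Omega cows, against 4.87, 5.12 and 5.31 in Control cows. The Omega cow was higher in all 7 blocks, by a fitted 0.18 (0.01 to 0.34; limma adjusted p 0.450), and by 0.15 (-0.04 to 0.33) without blocks 302 and 304. SLC35E3, a family member without an established substrate, had 5.19, 5.32 and 5.52 in Omega cows, against 4.81, 4.99 and 5.40 in Control cows. Its difference was 0.25 (0.03 to 0.48; limma adjusted p 0.447), with the Omega cow higher in 6 of 7 blocks; block 302 was the exception, and without blocks 302 and 304 the difference was 0.35 (0.13 to 0.57; limma adjusted p 0.702). The probe set of SLC35E3 has values equal to those of an unnamed predicted transcript's probe set, so its signal cannot be assigned to 1 annotation alone. The same holds for SLC5A3 and SLC39A4.

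**Figure D2:**
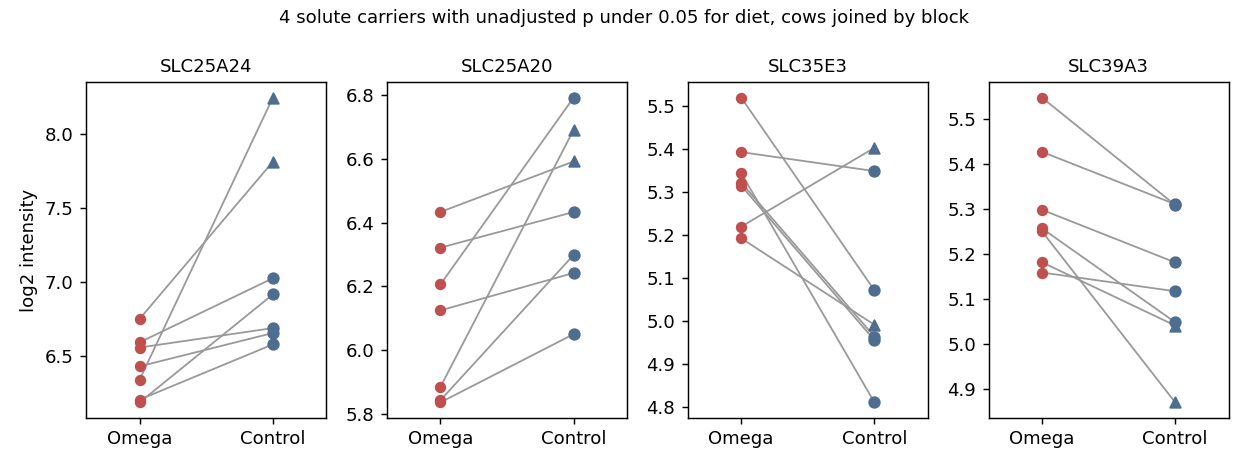
Log2 intensity of the 4 solute carriers with an unadjusted p under 0.05 for diet, with Omega cows on the left, Control cows on the right and a line joining the cows of a block; triangles mark the Control cows of blocks 302 and 304. SLC25A24 and SLC25A20 were lower in the Omega cow of all 7 blocks and SLC39A3 was higher in all 7.

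Among the 73 tested members, a shared direction in all 7 blocks was seen for 3, SLC25A20, SLC25A24 and SLC39A3 (4.11%), beside 3.56% of all tested probe sets. Omega and Control cows failed to overlap for 0 of the 73 tested members, beside 0.186% of all. The next members by unadjusted p were SLC46A3, a lysosomal carrier, at 0.30 (-0.01 to 0.61), the iron importer of mitochondria SLC25A37 at -0.20 (-0.42 to 0.01), SLC35A1 at -0.36 (-0.75 to 0.03) and SLC12A2 at -0.31 (-0.67 to 0.04). Adjusted p lay between 0.460 and 0.474 for these 4 in limma, and each interval includes 0. SLC35A2 at 0.22 (-0.04 to 0.49) and SLC25A26, the mitochondrial S-adenosylmethionine carrier, at 0.20 (-0.05 to 0.44) completed the 10 with the smallest p. Without blocks 302 and 304 all 6 of these differences were smaller: 0.15 for SLC46A3, -0.11 for SLC25A37, -0.09 for SLC35A1, -0.19 for SLC12A2, 0.04 for SLC35A2 and 0.06 for SLC25A26. SLC5A10, an untested sugar carrier that no cow brought past the filter value, was higher in the Omega cow of all 7 blocks. It had 4.31, 4.40 and 4.47 in Omega cows, against 3.89, 4.16 and 4.26 in Control cows, so that its groups did not overlap. At this brightness such a difference is poorly measured. The shares of 3.56% and 0.186% cover tested probe sets only, and how often untested ones do the same was not counted.

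By substrate group, the 19 tested mitochondrial carriers split into 10 higher and 9 lower in Omega cows, with a median difference of 0.05. The 8 zinc importers had a median of 0.03 and the 13 nucleotide sugar and acetyl-CoA carriers one of -0.07, with 5 higher and 8 lower. Vitamin and choline carriers had 4 of 5 higher and a median of 0.09, and amino acid, peptide and transmitter carriers had 4 of 5 higher and a median of 0.15. No group had a member past the adjusted threshold. The mitochondrial median was -0.05 without blocks 302 and 304. The half-width of the 95% interval had a median of 0.24 among the mitochondrial carriers, so a typical estimate is known to within about 1.18-fold either way with 7 blocks.

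Several members with wide ranges also changed sign when blocks 302 and 304 were left out. SLC25A21, the mitochondrial carrier of oxodicarboxylates, had a difference of 0.49 (-0.24 to 1.22) with all blocks and -0.09 (-0.42 to 0.23) without these 2. SLC16A1 had 0.16 (-0.61 to 0.93) with all blocks and -0.32 (-0.99 to 0.35) without them. SLC39A12 had 0.15 (-0.76 to 1.07) with all blocks and -0.42 (-0.998 to 0.16) without them. None of these 3 had an interval that excluded 0 in either fit. SLC40A1 had -0.39 (-0.92 to 0.13) with all blocks, and that shrank to -0.02 (-0.36 to 0.32) without these 2.

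SLC27A6 depended on which of these blocks was left out. The difference was 0.52 (-0.48 to 1.51) with all blocks and 0.65 (0.23 to 1.08; limma adjusted p 0.702) without blocks 302 and 304, with the Omega cow higher in 4 of 5 blocks. It was 0.96 without block 302 alone and 0.19 without block 304 alone. Without these blocks 7 members had an unadjusted p under 0.05 in limma (9.59%), beside 6.57% of all tested probe sets, and 0 passed the adjusted threshold, as did 0% of all. They were SLC25A20, SLC25A24, SLC25A51, SLC27A6, SLC35C2, SLC35E3 and SLC39A7, of which 3 were among the 4 counted with all blocks.

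Markers of cell types were fitted for diet too, and none passed the adjusted threshold. Their directions stand beside all tested probe sets, of which 4276 of 7518 were lower in Omega cows. All 7 tested fibroblast markers of 8 listed were lower in Omega cows, with a median of -0.41, and their summed level ran from 12.4 to 13.1 in Omega cows, against 12.5 to 13.8 in Control cows, where the 2 highest were blocks 302 and 304 at 13.8 and 13.7. All 4 acute-phase genes were lower in Omega cows, with a median of -0.75, and summed to 9.65 to 13.2 in Omega cows, against 10.5 to 15.2 in Control cows. Among the tested fibroblast markers the lowest single value was 5.13, for COL1A1, above the filter value of 4.59. HP of the acute-phase list had a lowest value of 3.49, below it. All 5 tested leukocyte markers were lower in Omega cows, with a median of -0.13, as were both tested myoepithelial markers and the adipocyte marker FABP4. Single differences ran from -0.50 for DCN to -0.01 for COL1A1 among the fibroblast markers. Among the leukocyte markers they ran from -0.34 for CD8A to -0.04 for CD3E. Luminal markers had 2 higher and 5 lower, with a median of -0.01 that rests on 4 milk protein probe sets near the top of the scale; KRT8, a luminal keratin, differed by -0.77 and EPCAM, an epithelial adhesion molecule, by -0.26, and both were highest in the Control cows of blocks 302 and 304. Endothelial markers had 2 in each direction, and 0 erythroid markers were tested. The part of these markers in the carrier differences was not tested.

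Genes that work with the carriers were listed too, as enzymes, pumps and subunits of 6 substrate groups. Of 49 listed, 26 were on the array under a name and 21 were tested. None passed the adjusted threshold for diet (0% of all tested probe sets did). In limma 0 had an unadjusted p under 0.05, beside 11% of all, and 11 of 21 were higher in Omega cows, beside 43.1% of all. BSG, the basigin chaperone that brings MCT1 to the membrane, averaged 9.88 ± 0.26 in Omega cows and 9.84 ± 0.16 in Control cows. MPC1, a subunit of the mitochondrial pyruvate carrier, averaged 10.5 ± 0.22 in Omega cows and 10.3 ± 0.78 in Control cows, with 9.29 and 9.03 in the Control cows of blocks 302 and 304. The diet difference of MPC1, 0.24, was above the SD of Omega cows and below that of Control cows, which holds these 2 low values.

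The Control cows of blocks 302 and 304 stood outside the range of the other 12 cows for 25 tested carriers. Both lay above all the others for 10 members (13.7%), beside 21.7% of all tested probe sets, and below all the others for 15 (20.5%), beside 15.5%. Because these cows were set apart by their own arrays, the counts describe them and test nothing. The 10 above were SLC12A2, SLC25A24, SLC25A37, SLC25A6, SLC31A1, SLC35A1, SLC35F6, SLC39A1, SLC40A1 and SLC66A3. Among the 15 below were the UDP-galactose carrier SLC35A2, the GDP-fucose carrier SLC35C1, the creatine carrier SLC6A8, and SLC25A21, SLC25A22, SLC25A4, SLC1A4, SLC39A3 and SLC29A3. SLC25A21 had 5.79 and 5.84 in these 2 cows, against 7.35 to 8.09 in the other 12. SLC35A1 had 8.15 and 8.22 in these 2 cows, against 6.80 to 7.36 in the other 12.

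**Figure D3:**
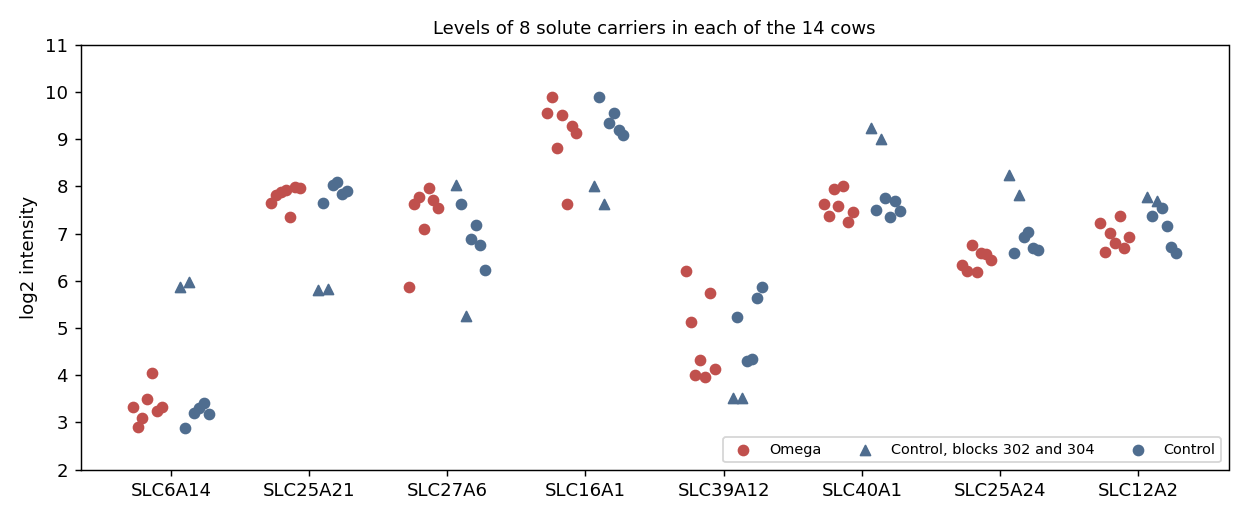
Log2 intensity of 8 solute carriers in each of the 14 cows, with Omega cows in red left of Control cows in blue; triangles mark the Control cows of blocks 302 and 304. Heights are comparable within a gene only. These 2 cows lie above the others for SLC6A14, SLC40A1, SLC25A24 and SLC12A2, below them for SLC25A21 and SLC39A12, and apart from each other for SLC27A6.

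SLC27A6 separated these 2 cows from each other, at 8.02 in block 302 and 5.26 in block 304, the highest and the lowest of all 14 values. SLC35C2, a Golgi protein linked to fucosylation, did so as well, at 4.90 and 6.33. Spread among cows in general was not unusual for the set: the SD over 14 cows had a median of 0.23 among the 73 tested members, beside 0.23 for all tested probe sets. It ran from 0.11 for SLC16A13 to 0.90 for SLC39A12.

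The second comparison set the 4 cows of parity 1 against the 10 cows of higher parity, with diet as a fixed and block as a random effect. All 4 cows of parity 1 came from blocks 302 and 306. Parity class thus did not vary within a block and cannot be told apart from other differences between blocks. None of the 73 members passed the adjusted threshold in limma (0% of all tested probe sets did), and 0 had an unadjusted p under 0.05, beside 2.19% of all (1.26% higher and 0.931% lower at parity 1). Members were higher at parity 1 in 30 of 73 cases (41.1%), beside 55.7% of all. SLC12A2 ran from 7.15 to 7.77 at parity 1, against a lowest, median and highest value of 6.59, 6.86 and 7.70 at higher parity, a fitted difference of 0.39 (-0.03 to 0.80). SLC35C2 ran from 4.90 to 6.28 at parity 1, against 5.72, 6.38 and 6.94 at higher parity, with a difference of -0.50 (-1.04 to 0.04). The 4.90 is the Control cow of block 302, and without the Control cows of blocks 302 and 304 the difference was -0.15 for SLC35C2 and 0.35 for SLC12A2. The classes overlapped for both genes, and the top of SLC12A2 in each class belonged to a cow of the 2 that stood apart. SLC35A5 at 0.22 (-0.04 to 0.48), SLC25A11, the oxoglutarate and malate carrier, at -0.15 (-0.33 to 0.03) and the sulfate carrier SLC26A11 at -0.15 (-0.33 to 0.04) were the other 3 with the smallest p. Without block 306, which holds 2 of the 4 cows of parity 1, they were 0.08, -0.07 and -0.05.

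The third comparison used the parity label as a number, with diet fixed and block random, so that its slopes are log2 units per unit of parity. The fitted correlation between cows of a block was -0.11, below 0. None of the 73 members passed an adjusted p of 0.05 in limma (0% of all), and 20 had an unadjusted p under 0.05 (27.4%), beside 23.2% of all tested probe sets. The slope was above 0 for 53 of 73 members (72.6%), beside 44.2% of all. With parity 14 of the 20 were higher (19.2%), beside 8.86% of all, and 6 were lower (8.22%), beside 14.3%. SLC25A24 had a slope of -0.18 (-0.29 to -0.07) and SLC12A2 one of -0.14 (-0.23 to -0.05). SLC29A3, the lysosomal nucleoside carrier ENT3, had a slope of 0.09 and SLC39A3 one of 0.06. Adjusted p in limma was 0.16 for each of these 4, and 0.23 for each without the block term. The block term thus made these p smaller.

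The raw values show what those slopes rest on. SLC25A24 ran from 6.34 to 8.25 at parity 1, stood at 6.75 and 7.81 in the 2 cows of parity 2, and had a lowest, median and highest value of 6.19, 6.57 and 6.92 at parity 3 or more. SLC16A1 ran from 7.63 to 9.56 at parity 1, stood at 8.81 and 7.62 at parity 2, and had 9.09, 9.30 and 9.89 at parity 3 or more. The 8 cows of parity 3 or more were more alike than the younger cows for SLC25A24 and SLC16A1. Without the Control cows of blocks 302 and 304, 3 members had an unadjusted p under 0.05 in limma (4.11%), beside 5.01% of all, SLC25A24 and SLC39A3 among them, and the slopes were -0.08 for SLC25A24, -0.10 for SLC12A2, 0.05 for SLC29A3 and 0.06 for SLC39A3.

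**Figure D4:**
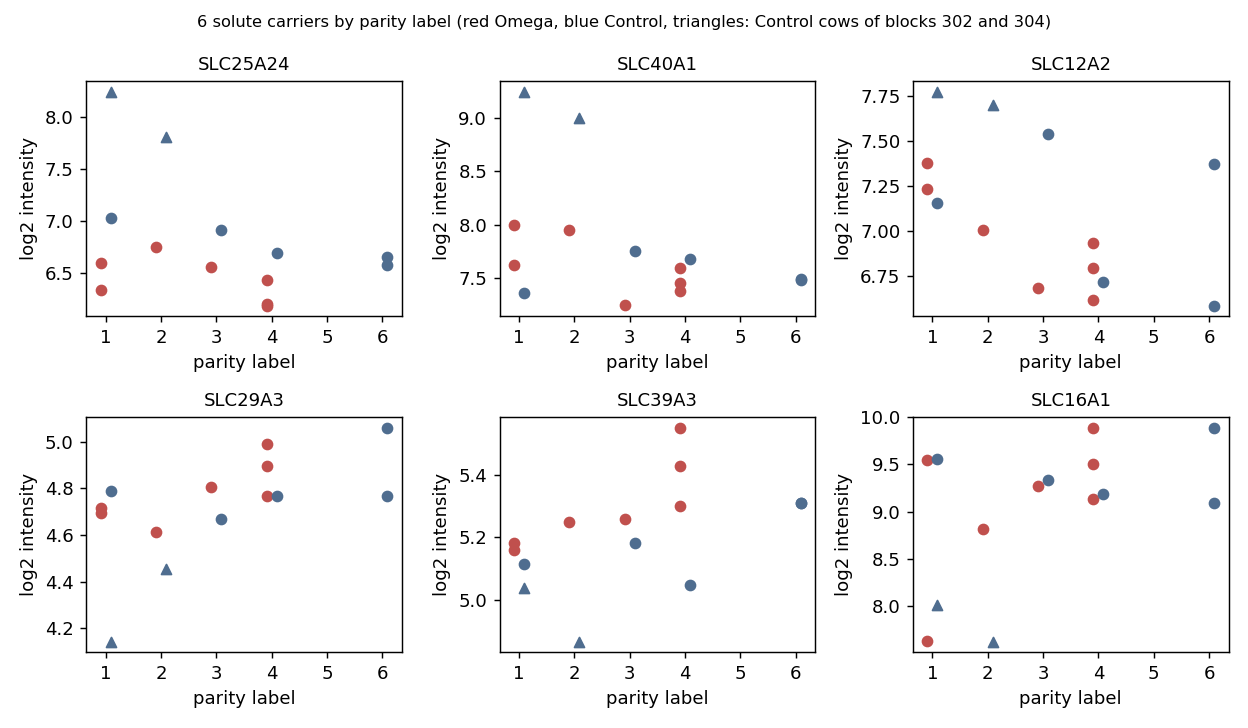
Log2 intensity of 6 solute carriers against the parity label, with Omega cows in red set slightly left of Control cows in blue; triangles mark the Control cows of blocks 302 and 304. The 2 triangles, at low parity, lie above all the other cows for SLC25A24, SLC40A1 and SLC12A2 and below them for SLC29A3 and SLC39A3. For SLC16A1 an Omega cow of parity 1 at 7.63 lies with the triangles.

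Leaving out block 306, both of whose cows had parity 1, brought 6 members past the adjusted threshold in limma (8.22%), beside 6.03% of all tested probe sets. Among them were SLC25A22, SLC25A24, SLC29A3, SLC35A1 and SLC40A1, with adjusted p between 0.049 and 0.050, of which SLC25A22, SLC35A1 and SLC40A1 are outside the naming rule for this comparison and were singled out after their values had been seen. The slopes were then -0.24 for SLC25A24, -0.28 for SLC40A1 and 0.14 for SLC25A22, the glutamate carrier of mitochondria. In that fit too the correlation between cows of a block was below 0, at -0.10. A fit without both block 306 and the block term was not run. With every block but without the Control cows of blocks 302 and 304, the slopes were -0.05 for SLC40A1, 0.03 for SLC25A22 and -0.02 for SLC35A1. Of the low parity cows, those that stood apart then made up 2 of 4, and the acute-phase list had slopes below 0 for all 4 genes with a median of -0.37 in the fit with every block. The part of these cows and markers in the slopes was not tested within that smaller set. Among the 21 partner genes, 0 passed the adjusted threshold for either parity comparison (0% of all tested probe sets did). In limma 1 had an unadjusted p under 0.05 for parity class, beside 2.19% of all. For parity number 3 had such a p, beside 23.2% of all.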

How the data were processed

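The authors deposited log2 intensities in 1 table of 10852 rows for 14 arrays. RMA and GCRMA are named per the submitters' processing notes, without saying which made the values. The deposited log2 values were used unchanged. Symbols came from RefSeq's bovine genes (ARS-UCD2.0) by accession, which named 6749 of 10740 gene probe sets. The members, gene lists and tests were chosen with earlier results of these data known. Differences were fitted with limma 3.58.1 in R 4.3.3 (lmFit, eBayes, duplicateCorrelation, Benjamini-Hochberg, threshold 0.05) after a filter at the 30th percentile of probe set means. The fits were also run on simulated data of independent noise, without block effects or cows that stand apart. That run checks the fitting steps only and does not show how they behave on these arrays. Cows were paired by block label, as the design describes; correlations of paired deviations ran from -0.47 to 0.32 and exceeded 0.1 in 3 of 7 blocks. Named genes had, per substrate group, the highest means or the smallest unadjusted p for diet or parity class, or, over all members, the 10 smallest p for diet, the 5 smallest for each parity fit or the 5 largest SDs. Some genes that these rules select are left out of the text. The number of arrays limits precision. Alternatives were other filters, normalizations and array weights, fits without the block, and leaving out blocks or cows.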

Additional observations from a re-analysis of the deposited data

Results flagged for a closer look

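Among 51 named members, each tested in 2 diets of 7 cows, 3 of 102 groups of values had 1 cow farther from the rest than Dixon's 95% critical value allows for 7 samples, and chance flags about 5% of groups. In Omega cows SLC27A6 was 5.86 in block 302, where the nearest other cow had 7.10. In Control cows SLC35C2 was 4.90 in block 302, with the nearest other cow at 6.18. SLC39A14, in Control cows, was 7.63 in block 304, with the nearest other cow at 8.26.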

How the results depend on the processing

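No solute carrier passed the adjusted threshold for diet or parity class under any alternative run here. For parity number 0 to 6 passed with 1 block left out, the 6 being without block 306 (8.22%, beside 6.03% of all tested probe sets). Without the replicate block, 5 members had an unadjusted p under 0.05 for diet, 0 for parity class and 16 for parity number, and no call changed. For diet 4 members had such a p (5.48%, beside 11% of all tested probe sets). The count was 7 without blocks 302 and 304 (9.59%, beside 6.57% of all). It was 2 with a filter at the 60th percentile, 8 with array weights, and 2 to 15 with 1 block left out. The mitochondrial median for diet was -0.051 without blocks 302 and 304, and -0.030 to 0.080 with 1 block left out. For parity class 0 had such a p, beside 2.19% of all. The count was 2 with no filter, 1 without the Control cows of blocks 302 and 304, and 0 to 9 with 1 block left out. The zinc median for parity class was -0.11 in the main fit and 0.10 with a filter at the 60th percentile, which kept fewer zinc carriers. For parity number 20 had such a p (27.4%, beside 23.2% of all). The count was 3 without these 2 cows (4.11%, beside 5.01% of all). It was 10 with that filter and 8 to 29 with 1 block left out. Where no share of all tested probe sets is given, it was not counted. Such counts cannot be read as a result about the carriers. The diet difference turned its sign without blocks 302 and 304 for SLC39A1 (0.065), SLC39A12 (-0.42), SLC25A21 (-0.091), SLC16A1 (-0.32), SLC1A4 (-0.23) and SLC25A4 (-0.062), and with array weights for SLC39A12 (-0.25) and SLC25A4 (-0.0014). With 1 block left out it ranged from -0.27 to 0.47 for SLC39A12, from -0.072 to 0.50 for SLC16A1 and from -0.043 to 0.28 for SLC1A4. Beside what these settings leave out, the cause was not tested. Each symbol had 1 probe set, so the choice of probe set had no alternative.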
